A study of Arabidopsis thaliana with 12 samples.

Results

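Of the 33602 genes measured in whole Arabidopsis thaliana seedlings, 16 were picked because their messenger RNA was present in every control library and near 0 after 96 h at low water potential. The rule asked for an RPKM of at least 1.5 in each of 6 control libraries and a mean RPKM under 0.5 over 6 stress libraries, where RPKM is the read number scaled to gene length and library size. The first condition alone was met by 17981 genes and the second alone by 12784. Together they were met by 18 genes (0.0796% of the 22604 with enough reads to be fitted), from which SWEET10 and CRK30 were set aside by name, along with 2 genes that did not meet them. The genes were thus selected on these RPKM values, so the difference between control and stress is described below without a test. The wild type was Col-0 (WT), and the mutant was ahl10-1, a T-DNA line (Salk_073165) in AHL10, which encodes an AT-hook motif nuclear localized DNA-binding protein. Control seedlings of both genotypes were on agar at a water potential of -0.25 MPa. They are listed with the same day of transfer (day 7) and time after it (96 h) as the stress seedlings. Stress, in both genotypes, meant a move at day 7 onto polyethylene glycol-infused plates at -0.7 MPa. Each of the 4 groups (WT control, ahl10-1 control, WT stress and ahl10-1 stress) held 3 libraries, described in the design as independent experiments. The growth medium held no sugar, and the whole seedling was taken, so shoot and root were not separated.

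Water potential measures how readily water moves into a plant, and polyethylene glycol of high molecular mass lowers it outside the root without entering the cell wall pores. Plants held at low water potential slow their growth, make abscisic acid and adjust their solutes and cell walls. Receptor kinases with leucine-rich repeats carry signals from the cell surface, calcium pumps return cytosolic calcium to its resting level after a signal, and small oxidoreductases change the redox state of other proteins. Many genes of these kinds are also known for their induction by microbes and wounding.

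By RefSeq annotation 15 of the 16 genes were protein coding and 1 (AT5G35777) was a pseudogene. They held 2 receptor kinases, 3 transporters or pumps, 3 redox proteins, 1 cell wall protein, 3 regulators and 4 genes outside these classes. They lay on all 5 nuclear chromosomes, with 5 on chromosome 3, 5 on chromosome 5, 4 on chromosome 1 and 1 each on chromosomes 2 and 4. A promoter window of 250 bases before the annotated start was read for the 15 protein-coding genes from the RefSeq genome (TAIR10.1). The length over which reads were counted equalled the RefSeq exon length in only 2 of the 16 genes. It was 1150 bases against 2848 for AT2G43140, and 410 against 1457 for AT5G44585. Starts of the transcripts counted may thus differ from the annotated ones, and a window may not lie just before them. Shown here, for genes described below, are the windows of AT2G43140, a basic helix-loop-helix gene, and AT5G44585, which held the most W-box cores. Also shown are those of AT3G62950 and AT3G62960, adjacent genes with the product name thioredoxin superfamily protein, which held none. Capitals mark the W-box core, TTGAC or its reverse complement GTCAA, the core of the element bound by WRKY transcription factors. Each sequence runs 5′ to 3′ along the strand of its gene.
AT2G43140, chr2:17935749-17935998, minus strand: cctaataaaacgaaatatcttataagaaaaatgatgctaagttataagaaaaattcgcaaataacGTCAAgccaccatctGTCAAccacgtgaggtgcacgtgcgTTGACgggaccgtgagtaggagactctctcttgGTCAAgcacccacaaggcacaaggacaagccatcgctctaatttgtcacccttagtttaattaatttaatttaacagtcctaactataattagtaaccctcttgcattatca
AT5G44585, chr5:17984277-17984526, plus strand: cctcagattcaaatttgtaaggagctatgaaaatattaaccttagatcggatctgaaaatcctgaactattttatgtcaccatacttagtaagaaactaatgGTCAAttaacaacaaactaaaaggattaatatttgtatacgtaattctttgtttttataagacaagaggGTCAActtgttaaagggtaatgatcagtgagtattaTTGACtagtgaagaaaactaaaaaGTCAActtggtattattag
AT3G62950, chr3:23265977-23266226, plus strand: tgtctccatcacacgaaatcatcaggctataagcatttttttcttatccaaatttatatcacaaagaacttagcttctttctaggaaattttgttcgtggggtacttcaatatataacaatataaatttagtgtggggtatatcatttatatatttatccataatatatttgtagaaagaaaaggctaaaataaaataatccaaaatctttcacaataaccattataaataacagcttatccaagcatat
AT3G62960, chr3:23268391-23268640, plus strand: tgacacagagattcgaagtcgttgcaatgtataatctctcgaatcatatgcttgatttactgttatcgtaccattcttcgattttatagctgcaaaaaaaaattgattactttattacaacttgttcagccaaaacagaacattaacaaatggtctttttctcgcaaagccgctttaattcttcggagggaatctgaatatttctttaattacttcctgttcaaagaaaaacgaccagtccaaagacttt
The first window held 4 W-box cores, and so did the second. On either strand, TTGAC was found in 9 of the 15 windows (60.0%) and in 45.0% of the 26711 windows of all annotated protein-coding genes. The auxin response element TGTCTC was in 4 of 15 (26.7%) against 10.9% of all windows, and the GCC box GCCGCC in 1 of 15 (6.67%) against 1.85%. ACGTG, the core of the abscisic acid response element, was in 2 of 15 (13.3%) against 23.1%. Both of those windows also held the G-box CACGTG, which contains ACGTG, and which was in 6.58% of all windows. TATAAA was in 9 of 15 (60.0%) against 47.8%. A match says that the letters are there, not that a factor binds. By the same annotation 4 of the 16 genes shared exon bases with another gene (AT1G26250, AT2G43140, AT3G23550 and AT5G44585), from 69 to 1443 bases, mostly on the opposite strand. The libraries kept strand, but whether the counting used it is not given in the sources used here, so reads of these 4 genes may include their partners.

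The libraries held 57996104 to 68555138 reads in genes. AHL10 itself had an RPKM of 21.8 to 22.5 in WT control and 31.6 to 32.3 in WT stress, against 9.05 to 12.4 and 13.2 to 16.5 in the same conditions of ahl10-1, so the insertion line kept part of the transcript. Markers of root, leaf mesophyll, guard cell, phloem, xylem and dividing cells were all present. Some of their summed levels moved with the treatment: 3 root hair markers summed to an RPKM of 5.64 to 21.7 in control and 19.9 to 32.8 under stress, 3 guard cell markers to 25.7 to 29.6 and 17.0 to 20.7, and 2 phloem companion cell markers to 95.4 to 112 and 68.5 to 79.2. Not every marker followed its sum: SUC2 went from 80.2 to 101 in control to 54.4 to 65.5 under stress, while the phloem marker APL had 11.3 to 15.1 and 11.97 to 14.3, and the guard cell marker FAMA overlapped as well. The 2 xylem markers summed to 36.3 to 49.1 in control and 49.05 to 72.3 under stress, with CESA7 at 6.21 to 8.35 and 9.98 to 14.5. Flower markers summed to at most 1.15. In whole seedlings, fewer cells of a type and less RNA per cell cannot be told apart, and the part of tissue makeup in the values below was not tested.

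All 16 genes were high in control and low under stress in both genotypes, and for each gene the highest stress library lay below the lowest control library. That separation held for 8.68% of the 22604 genes with enough reads to be fitted, and it follows almost directly from the rule. Mean RPKM over the 6 control libraries ran from 2.18 (ABCG4) to 6.06 (AT3G62950), with a median of 3.28 over the genes. Over the 6 stress libraries it ran from 0.135 (AT1G26390) to 0.465 (AT5G44585). The control mean divided by the stress mean was 5.29 for AT1G05700, 28.5 for AT3G23550 and 11.3 at the median, and it reached 10 in 11 of the 16 genes. Transcript was scarce under stress but seldom absent: the genes had 0 to 139 reads per stress library (median 21) and 50 to 1135 per control library. The single 0 was AT1G70270 in WT stress replicate 2, where a count of 0 allows up to 3 reads by counting error alone. The RPKM values of each group are given below in the order of replicates 1, 2 and 3.

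**Figure D1:**
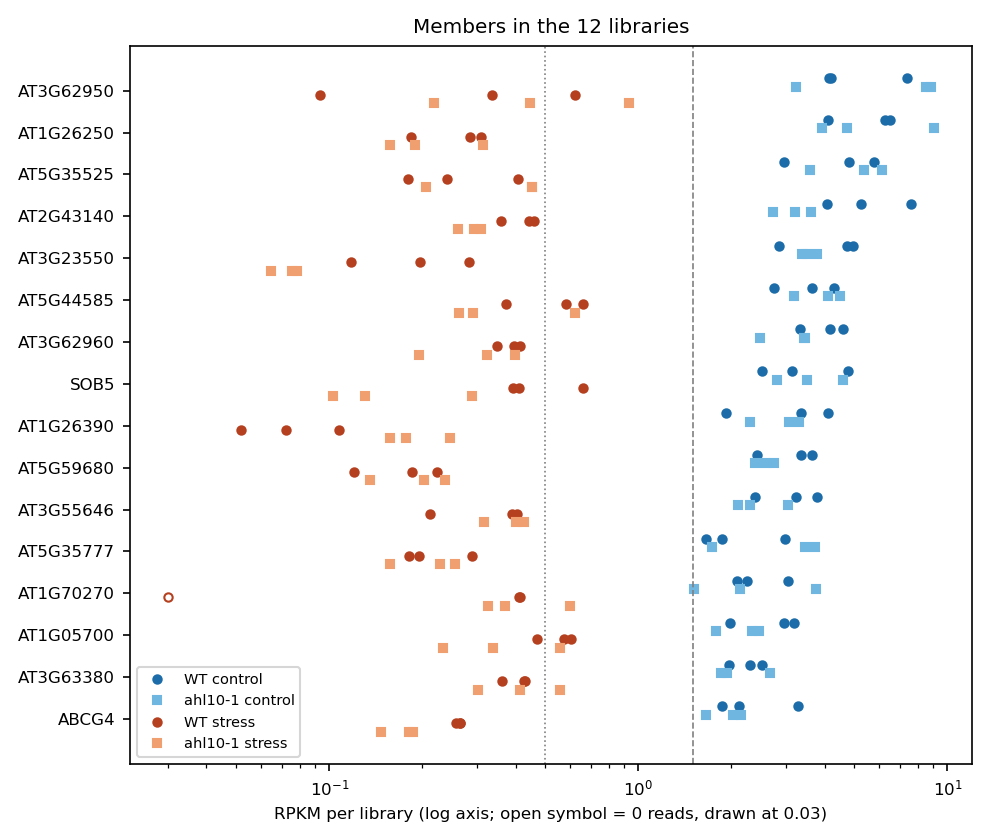
RPKM (log axis) of the 16 genes in the 12 libraries, ordered by control mean; circles are WT, squares ahl10-1, blue control and red or orange stress, and the open circle is the 1 library with 0 reads. The dotted line marks an RPKM of 0.5 and the dashed line 1.5, and no gene has a stress library above its lowest control library.

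Both receptor kinases have leucine-rich repeats, which lie outside the cell in such proteins, and a kinase domain inside it. AT5G59680 had control RPKM values of 2.42, 3.37 and 3.65 in WT and 2.39, 2.75 and 2.56 in ahl10-1. Its stress values were 0.224, 0.120 and 0.185 in WT and 0.202, 0.135 and 0.236 in ahl10-1. It reached at most 0.236 in any stress library, with the genotypes overlapping, and its log2 fold change was -4.21 (SE 0.26) in WT and -3.82 (SE 0.25) in ahl10-1. For AT1G05700 the control values were 1.97, 2.95 and 3.19 in WT and 2.45, 2.33 and 1.78 in ahl10-1. Under stress they were 0.603, 0.471 and 0.573 in WT and 0.338, 0.556 and 0.234 in ahl10-1. This gene kept the largest share of its control level, 18.9%, with a log2 fold change of -2.36 (SE 0.26) in WT and -2.61 (SE 0.27) in ahl10-1. Of 104 other fitted genes that RefSeq names as leucine-rich repeat protein kinase family, 35 fell and 8 rose in WT at an adjusted p under 0.05 (edgeR), where 12.5% of all fitted genes fell and 11.7% rose. In ahl10-1, 34 fell and 7 rose, against 13.5% and 14.2% of all fitted genes. AT5G59670, of the same product and next to AT5G59680 on the same strand, had a log2 change of -0.44 in WT (adjusted p = 0.318, edgeR), so the neighbouring kinase gene did not pass the test.

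Among the transporters and pumps the control mean was 5.31 to 28.5 times the stress mean. AT3G23550 encodes a MATE efflux protein, a family that moves organic molecules out of the cytosol in exchange for ions, and its control RPKM values were 2.86, 4.96 and 4.73 in WT and 3.78, 3.503 and 3.38 in ahl10-1. Under stress the values were 0.117, 0.282 and 0.197 in WT and 0.0788, 0.0647 and 0.0757 in ahl10-1. The 3 mutant stress libraries had 7 to 9 reads each and all lay below the 3 WT ones. That order under stress was found in 10.3% of fitted genes. The log2 fold change was -4.46 (SE 0.29) in WT and -5.66 (SE 0.32) in ahl10-1. The next gene on the same strand, ALF5, is also a MATE gene and went the other way: its mean RPKM was 10.1 in control and 13.9 under stress, and its log2 change was 0.36 (SE 0.08) in WT (adjusted p = 0.00963, edgeR). Among the 46 other fitted MATE genes as many rose as fell in WT, 8 each, and in ahl10-1 9 rose and 7 fell. That was 34.8% called in each genotype, beside 24.2% of all fitted genes in WT and 27.8% in ahl10-1.

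ABCG4 (AT4G25750) is an ABC transporter of the G subfamily, which moves lipids and hormones across membranes. In control its RPKM was 2.12, 3.29 and 1.86 in WT and 2.02, 1.65 and 2.15 in ahl10-1. Under stress it was 0.266, 0.264 and 0.257 in WT and 0.147, 0.181 and 0.186 in ahl10-1. Its WT stress libraries agreed closely (SD 0.00432, n = 3), and all 3 mutant values lay below them, as in 10.3% of fitted genes. AT3G63380, listed with the synonym ACA12 of the autoinhibited calcium pumps, had control values of 2.51, 1.96 and 2.30 in WT and 2.66, 1.84 and 1.93 in ahl10-1. In the stress libraries it had 0.361, 0.427 and 0.429 in WT and 0.412, 0.555 and 0.303 in ahl10-1. It kept 18.9% of its control level and had 74 to 139 reads per stress library, counted over 3750 bases. Of 9 other fitted genes with an ACA symbol or synonym, 3 rose and 2 fell in each genotype, 55.6% in all. Those that rose included AT3G22910 (log2 change 1.42 in WT, adjusted p = 0.0155, edgeR), which also has the RefSeq product of AT3G63380. Another was ECA1 (log2 change 0.25 in WT, adjusted p = 0.0288, edgeR), which has an ACA name only as a synonym. Of 9 other fitted genes with the product of AT3G63380, 4 rose in WT (44.4%) and 5 in ahl10-1 (55.6%), and none fell. Of 17 other fitted ABC-2 type transporter genes, 3 rose and 2 fell in WT, and 4 rose and 3 fell in ahl10-1. These calls were 29.4% of them in WT and 41.2% in ahl10-1, where 24.2% and 27.8% of all fitted genes were called.

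Of the redox proteins, AT3G62950 and AT3G62960 are adjacent genes on the same strand of chromosome 3, whose windows are printed above, and both encode members of the thioredoxin superfamily. AT3G62950 had the highest control mean of the 16 genes, and its control RPKM values were 7.42, 4.20 and 4.15 in WT and 8.82, 3.23 and 8.53 in ahl10-1. The stress libraries gave 0.336, 0.623 and 0.0929 in WT and 0.930, 0.218 and 0.447 in ahl10-1. WT stress replicate 3 was the lowest with 4 reads and ahl10-1 stress replicate 1 the highest with 45, so the genotypes overlapped. AT3G62960 was steadier, with control values of 3.32, 4.59 and 4.16 in WT and 3.45, 3.44 and 2.47 in ahl10-1. At low water potential it had 0.396, 0.347 and 0.415 in WT and 0.323, 0.195 and 0.399 in ahl10-1. The pair were both low under stress, with log2 fold changes of -3.96 (SE 0.64) and -3.43 (SE 0.26) in WT, but did not follow each other among the control libraries. AT3G62950 was highest in ahl10-1 control replicate 1, and AT3G62960 in WT control replicate 2. Another gene of the same product, AT3G62930 on the opposite strand, had a mean RPKM of 13.1 in control and 8.04 under stress. Its log2 change was -0.51 (adjusted p = 0.0887) in WT and -1.09 (adjusted p = 0.00223) in ahl10-1 (edgeR). Of 45 other fitted genes of this product, 9 fell and 7 rose in WT, and 10 fell and 5 rose in ahl10-1. Those calls were 35.6% and 33.3% of them, beside 24.2% and 27.8% of all fitted genes. No gene of this product was called in the interaction of genotype and treatment, but neither was any other of the 22604 fitted genes (edgeR).

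AT1G26390 encodes a berberine bridge enzyme-like protein with a bound flavin (FAD-binding Berberine family). Its control values were 4.12, 3.37 and 1.92 in WT and 3.304, 3.08 and 2.29 in ahl10-1. Its stress values were 0.107, 0.0519 and 0.0723 in WT and 0.177, 0.246 and 0.157 in ahl10-1. Its WT stress mean of 0.0773 ± 0.0281 (SD, n = 3), from 6 to 14 reads per library, was the lowest among the 16 genes. All 3 mutant stress values lay above the WT ones, as in 2.60% of fitted genes. The log2 fold change was -5.38 (SE 0.36) in WT and -3.97 (SE 0.32) in ahl10-1. It lies in a row of genes of the same product on the same strand. AT1G26380 before it had a mean RPKM of 2.58 in control and 0.277 under stress and changed by a log2 value of -3.33 (SE 0.57) in WT (adjusted p = 0.00180, edgeR). AT1G26410 had 1.62 and 0.179 and changed by -2.98 (SE 0.51, adjusted p = 0.00158, edgeR). Both fell in ahl10-1 as well, while AT1G26400 between them was listed at 0 in every library. Of the 18 other fitted Berberine family genes, 8 fell and 3 rose in WT, and 7 fell and 4 rose in ahl10-1. Calls covered 61.1% of them in each genotype, beside 24.2% of all fitted genes in WT and 27.8% in ahl10-1. The family genes that rose included AT2G34810, with a mean RPKM of 6.43 in control and 28.9 under stress.

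The cell wall gene was AT1G26250, a proline-rich extensin-like gene, and extensins are hydroxyproline-rich glycoproteins that are cross-linked into the wall. Its control RPKM values were 4.10, 6.54 and 6.29 in WT and 9.02, 4.75 and 3.92 in ahl10-1. Under stress they were 0.183, 0.309 and 0.284 in WT and 0.157, 0.313 and 0.189 in ahl10-1. Control libraries differed by up to 2.30-fold, with ahl10-1 control replicate 1 the highest. The log2 fold change was -4.51 (SE 0.36) in WT and -4.80 (SE 0.37) in ahl10-1. Its neighbour on the opposite strand, AT1G26240, has the same product, and fell from a mean RPKM of 0.741 to 0.0208, a log2 change of -4.87 (SE 0.66) in WT (adjusted p = 0.000313, edgeR). The rest of the family went in both directions: of 12 other fitted extensin-like genes, that neighbour included, 2 rose and 2 fell in WT, and 7 rose and 2 fell in ahl10-1. Their median log2 change was 0.71 in WT and 1.51 in ahl10-1, where the median of all fitted genes was near 0 (-0.0016 and -0.00080). Calls covered 33.3% of the 12 in WT and 75.0% in ahl10-1, beside 24.2% and 27.8% of all fitted genes. EXT6, called in ahl10-1 alone, had a mean RPKM of 3.48 in control and 10.3 under stress. Its log2 change was 1.21 (SE 0.41, adjusted p = 0.0589) in WT and 1.87 (SE 0.43, adjusted p = 0.00916) in ahl10-1 (edgeR). Root hair marker sums, given above, ranged higher under stress, and their part in the family's values was not tested.

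Among the regulators, AT2G43140 encodes a basic helix-loop-helix DNA-binding protein and had the smallest p of the 16 genes between genotypes in control. Its control RPKM values were 4.06, 7.62 and 5.26 in WT and 3.62, 2.72 and 3.22 in ahl10-1. Under stress the values were 0.459, 0.358 and 0.443 in WT and 0.308, 0.261 and 0.293 in ahl10-1. All 3 mutant libraries lay below all 3 WT libraries in both conditions. With each condition counted alone, that order held for 5.88% of fitted genes in control and 10.3% under stress. Its log2 fold change with stress was -3.81 (SE 0.25) in WT and -3.54 (SE 0.25) in ahl10-1. Of 94 other fitted genes of that product, 23 fell and 12 rose in WT, and 18 fell and 14 rose in ahl10-1. Calls thus covered 37.2% and 34.0% of them, beside 24.2% and 27.8% of all fitted genes.

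SOB5 (AT5G08150) is named for suppressing a phytochrome B mutant when overexpressed, and in Arabidopsis it is linked to cytokinin. Its control values were 4.77, 2.52 and 3.15 in WT and 3.498, 2.81 and 4.58 in ahl10-1. In the stress libraries it had 0.411, 0.662 and 0.392 in WT and 0.103, 0.130 and 0.289 in ahl10-1. The control libraries of the genotypes overlapped, and under stress the mutant libraries, with 5 to 13 reads, lay below the WT ones, with 17 to 30. Such an order under stress held for 10.3% of fitted genes. AT1G70270, annotated as a transcription factor, had control values of 2.08, 3.04 and 2.24 in WT and 1.51, 3.75 and 2.13 in ahl10-1. The stress libraries gave 0.411, 0 and 0.415 in WT and 0.369, 0.325 and 0.599 in ahl10-1. With 50 to 120 reads in control it was the most thinly read of these regulators, and it had the lowest control library of the 16 genes, ahl10-1 control replicate 1.

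The remaining 4 genes were not placed in a role class from their RefSeq products. AT5G35525 has a cysteine-rich PLAC8 domain, and its control values were 5.76, 4.79 and 2.96 in WT and 5.37, 3.60 and 6.13 in ahl10-1. At low water potential it had 0.409, 0.179 and 0.241 in WT and 0.452, 0.452 and 0.206 in ahl10-1. Of 15 other fitted PLAC8 genes, 5 fell in WT, and 5 fell and 1 rose in ahl10-1. The shares called were 33.3% in WT and 40.0% in ahl10-1, beside 24.2% and 27.8% of all fitted genes. RefSeq names AT5G44585, whose window is printed above, only as an uncharacterized protein. Its control values were 4.31, 2.75 and 3.64 in WT and 4.50, 3.20 and 4.12 in ahl10-1. Its stress values were 0.660, 0.372 and 0.583 in WT and 0.623, 0.292 and 0.262 in ahl10-1, the highest stress mean of the 16 genes. AT3G55646 carries the product name TPRXL, with control values of 3.80, 3.24 and 2.38 in WT and 2.10, 3.06 and 2.30 in ahl10-1. Under stress the values were 0.212, 0.403 and 0.390 in WT and 0.402, 0.425 and 0.315 in ahl10-1. The pseudogene AT5G35777, which was counted over 4575 bases, had control values of 2.98, 1.86 and 1.66 in WT and 3.47, 1.73 and 3.72 in ahl10-1. In the stress libraries it had 0.180, 0.290 and 0.195 in WT and 0.254, 0.157 and 0.228 in ahl10-1. Its control libraries fell into 3 high and 3 low ones that cut across the genotypes.

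Other genes of the 16 showed that split, which was noticed in these genes and then counted in them, so the shares that follow are a description. In 5 of the 16 genes (AT3G62950, SOB5, AT5G35525, AT5G44585 and AT5G35777) WT control replicate 1, ahl10-1 control replicate 1 and ahl10-1 control replicate 3 were the 3 highest control libraries, which held for 2.00% of 3848 other genes with a control mean in the same range. In 5 others (AT1G05700, AT2G43140, AT3G23550, AT3G62960 and AT5G59680) WT control replicates 2 and 3 were the 2 highest, likewise a pattern read from these genes, which held for 12.8% of the 3848. The highest control library was 1.94 times the lowest at the median of the 16 genes, from 1.44 to 2.80. Over 4005 genes with every control library at 1.5 or more and the same upper limit on the control mean, that median was 1.45. The 16 genes did not vary among the control libraries as a single group.

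**Figure D2:**
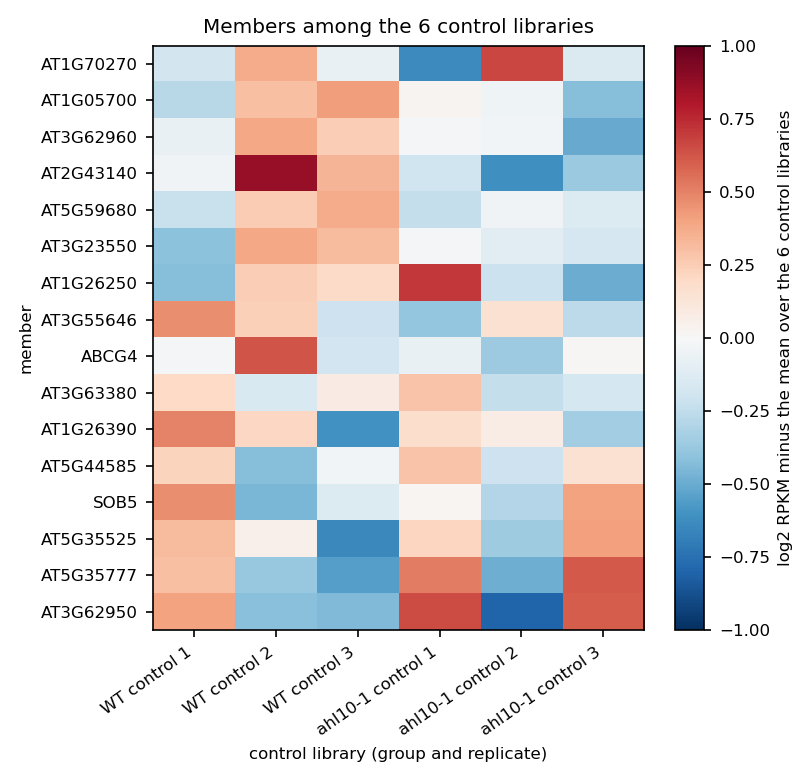
Heat map of log2 RPKM in the 6 control libraries, each gene (row) centred on its own mean over them; red is above that mean and blue below. Rows at the bottom are high in WT control 1, ahl10-1 control 1 and ahl10-1 control 3, while AT2G43140 and AT3G23550 are high in WT control 2 and 3.

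The design asks whether the ahl10-1 insertion changes expression in control, under stress, or in the response to stress. These comparisons were run on the 16 genes, but the rule that picked them used the same values and limits what they can show. A gene nearly absent in control in either genotype could not be picked. Nor could a gene that stayed near its control level under stress in either genotype. A lack of calls is thus partly built in, and only smaller genotype differences within these limits could be tested. None was called between genotypes in control, under stress or in the interaction at an adjusted p under 0.05 (edgeR), where 0.0177%, 0.0265% and 0% of all 22604 fitted genes were called. DESeq2 and limma also called none of the 16 in any of the 3 comparisons. At an unadjusted p under 0.05, 1 of the 16 passed in control, 3 under stress and 3 in the interaction, against 5.34%, 3.75% and 1.42% of all fitted genes.

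In control that gene was AT2G43140, with a mean RPKM of 5.65 ± 1.81 (SD, n = 3) in WT and 3.18 ± 0.452 in ahl10-1. Its log2 fold change, mutant against WT, was -0.76 (SE 0.21, adjusted p = 0.854, edgeR). It was the only one of the 16 whose genotypes did not overlap in control, where 5.88% of fitted genes had all mutant libraries below all WT libraries and 1.39% had them above. For the other genes the log2 change in control ran between -0.31 (AT3G62960) and 0.52 (AT5G35777), with SEs from 0.18 to 0.53.

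Under stress the genotypes did not overlap in 5 of the 16 genes: AT2G43140, AT3G23550, SOB5 and ABCG4 were lower in all mutant libraries, and AT1G26390 was higher. The same held for 10.3% of fitted genes in the lower direction and 2.60% in the higher. AT3G23550 had a mean RPKM of 0.199 ± 0.0828 (SD, n = 3) in WT and 0.0731 ± 0.00740 in ahl10-1, a log2 change of -1.36 (SE 0.38, adjusted p = 0.999, edgeR). SOB5 had 0.489 ± 0.151 and 0.174 ± 0.1004 (log2 change -1.43, SE 0.48, adjusted p = 0.999, edgeR). AT1G26390 had 0.0773 ± 0.0281 and 0.193 ± 0.0471 (log2 change 1.35, SE 0.41, adjusted p = 0.999, edgeR). All 3 rest on at most 30 reads per library, and none held up against the number of genes tested. The same 3 genes had the largest interaction terms, of -1.20 (SE 0.44), -1.56 (SE 0.58) and 1.41 (SE 0.48) on the log2 scale in that order, each with an adjusted p of 1 (edgeR). In the authors' deposited tables none of the 16 genes had an adjusted p under 0.05 between genotypes in control or under stress.

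**Figure D3:**
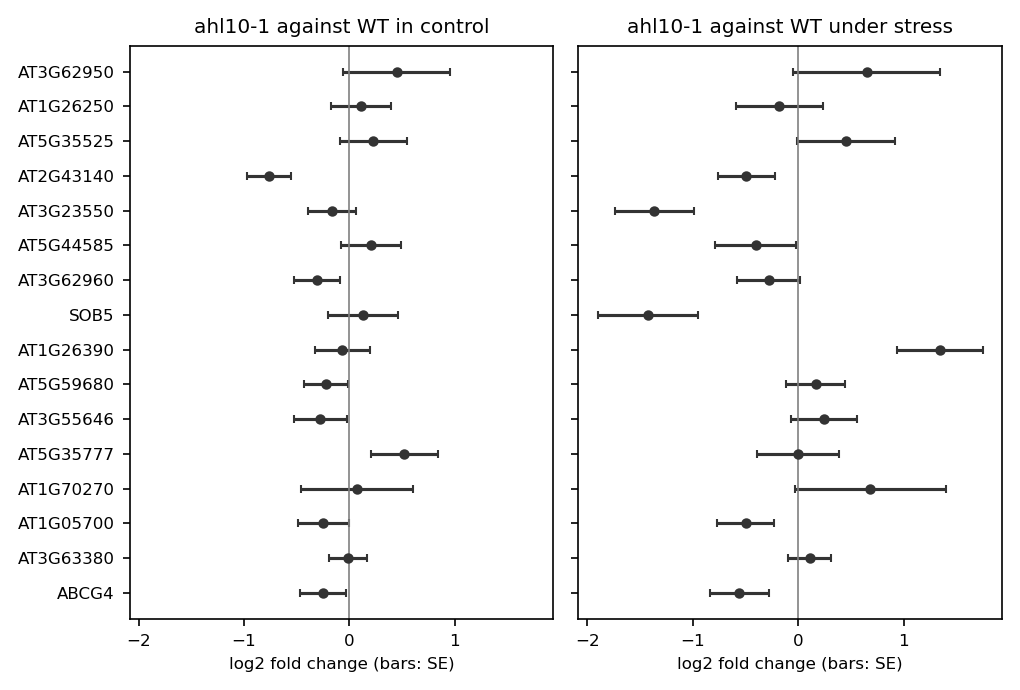
Log2 fold change of ahl10-1 against WT in control (left) and under stress (right) for the 16 genes from the edgeR fit; points are estimates and bars 1 SE. AT2G43140 lies at -0.76 in control, and AT3G23550, SOB5 and AT1G26390 lie at -1.36, -1.43 and 1.35 under stress, where none passed an adjusted p of 0.05.

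The ratio of control to stress mean RPKM was 10.1 at the median of the 16 genes in WT and 12.1 in ahl10-1, and it was larger in ahl10-1 for 7 of them. In the table of stress in WT that the authors deposited (the authors' deposited table), the log2 fold changes of the 16 genes ran from -4.09 to -1.80.

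The genes just inside and just outside the thresholds had like values. Next to AT5G44585, AT1G05700 and AT3G62950, with stress means of 0.465, 0.463 and 0.441, lay AT5G43520 at 0.503, the receptor-like kinase gene CRK41 at 0.556 and AT5G39110 at 0.579. For the control threshold the lowest library was at 1.51 in AT1G70270, 1.65 in ABCG4 and 1.66 in AT5G35777. Just outside lay the peroxidase gene PER4 at 1.498, the Berberine gene AT1G26380 at 1.47 and PP2-A5 at 1.42.

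Neighbours were read to 2 genes on each side in the RefSeq order, which gave 60 genes other than the 16, of which 51 were fitted. Among 45 fitted neighbours with another product, 5 rose and 5 fell in WT, 22.2% in all, beside 24.2% of all fitted genes. In ahl10-1, 6 rose and 10 fell, 35.6% beside 27.8%. Genes that RefSeq names only as uncharacterized were counted there even where the member is too, as AT5G44580 and AT5G44582 were beside AT5G44585. The 6 fitted neighbours with the same product as their member had a median log2 change of -1.74 in WT, and 3 of them fell (AT1G26240, AT1G26380 and AT1G26410) and ALF5 rose. Neighbours that rose included UGT74E2, a glycosyltransferase gene near AT1G05700, with a mean RPKM of 1.76 in control and 9.53 under stress (log2 change 2.19, SE 0.19, adjusted p = 1.45e-05 in WT, edgeR). Both neighbours before AT5G44585 fell by less than it did: AT5G44580 had a log2 change of -0.67 (adjusted p = 0.0293) and AT5G44582 of -0.86 (adjusted p = 0.0147) in WT (edgeR).

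**Figure D4:**
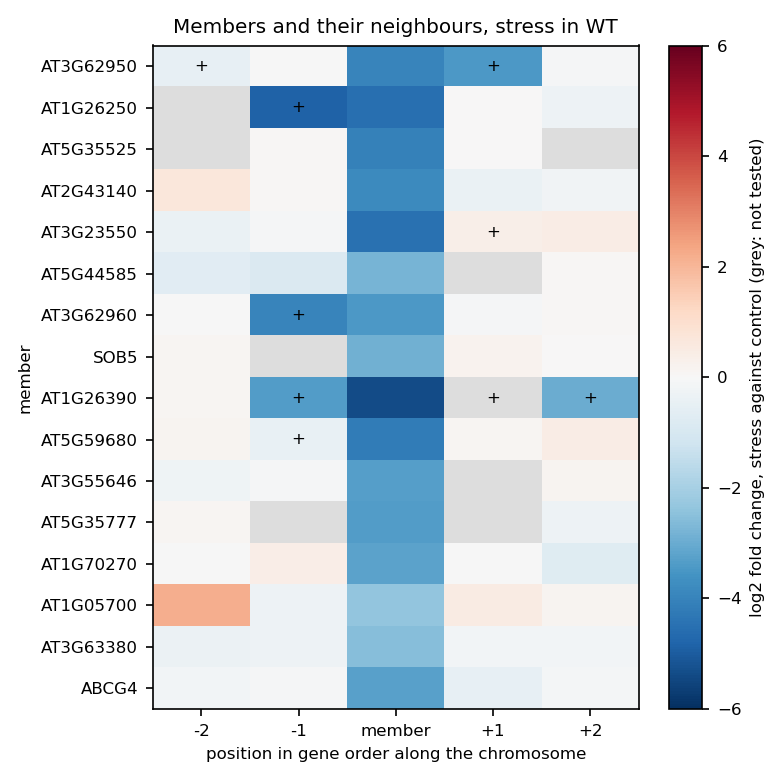
Log2 fold change under stress in WT (colour; blue lower, red higher, grey not fitted) for each of the 16 genes and for the genes up to 2 positions away in gene order; a plus sign marks a neighbour with the same product. Blue outside the middle column stands mainly at AT1G26240, AT1G26380, AT1G26410 and the pair AT3G62950 and AT3G62960.

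To place the 16 genes beside known pathways, 6 gene lists that hold none of them were read from the same fits. Of all fitted genes, 12.5% fell and 11.7% rose in WT, and 13.5% fell and 14.2% rose in ahl10-1. Each list count is to be read beside those shares. In the pattern-triggered list, genes induced when receptors such as FLS2 sense microbial molecules, 7 of 14 fell and none rose in WT. The same numbers held in ahl10-1, but not for all the same genes. PROPEP2, RBOHD and WRKY33 passed in WT alone, and FLS2, PAD3 and CYP71A13 in ahl10-1 alone. The median log2 change of the list was -0.99 in WT and -0.90 in ahl10-1. CYP81F2, an indole glucosinolate enzyme, had an RPKM of 6.38 ± 2.13 (SD, n = 3) in WT control and 1.41 ± 0.544 in WT stress (log2 change -2.24, SE 0.30, adjusted p = 0.000321, edgeR). CYP82C2 changed by -3.65 (SE 0.73) and the transcription factor gene WRKY29 by -0.91 (SE 0.15), with adjusted p-values of 0.00374 and 0.00100 in WT (edgeR). The level of CYP82C2 was low, with a mean RPKM of 0.359 in WT control and 0.0304 in WT stress. PROPEP2, a danger peptide precursor, changed by -1.75 (SE 0.44, adjusted p = 0.0126) in WT and by -1.06 (SE 0.43, adjusted p = 0.0892) in ahl10-1 (edgeR). Without WT stress replicate 1 the WT count was 3, and in ahl10-1 the count was 3 without stress replicate 3, and 4 without any 1 of stress replicate 1, control replicate 1 and control replicate 3.

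In the salicylic acid and defence list, 18 of 20 genes were fitted, and in each genotype 5 fell and 1 rose. These 6 calls are 33.3% of the fitted list, beside 24.2% of all fitted genes in WT and 27.8% in ahl10-1. The list had a median log2 change of -0.55 in WT and -0.53 in ahl10-1. PCC1 had the highest level of those that fell, with an RPKM of 76.8 ± 30.3 (SD, n = 3) in WT control and 12.1 ± 1.505 in WT stress (log2 change -2.74, SE 0.43, adjusted p = 0.00146, edgeR). ALD1, which makes the precursor of pipecolic acid, changed by -3.75 (SE 0.67, adjusted p = 0.00184, edgeR) in WT. Its level was low throughout, with a mean RPKM of 0.304 in WT control and 0.0230 in WT stress. CBP60G, a regulator of salicylic acid synthesis, changed by -1.77 (SE 0.41, adjusted p = 0.0102) in WT and by -0.97 (SE 0.41, adjusted p = 0.103) in ahl10-1 (edgeR), and in the ahl10-1 libraries alone with the replicate block its adjusted p was 0.00541. The gene that rose was BG2, a glucanase gene, from 0.187 ± 0.0466 to 3.19 ± 2.49 in WT (log2 change 4.03, SE 0.66, adjusted p = 0.00131, edgeR). Genes of this list that did not pass the test in WT included ICS1, EDS1, PAD4 and NPR1, named after their values were seen. Their log2 changes ran from -0.43 to -0.09, with adjusted p-values of 0.0513 for EDS1 and 0.0733 for PAD4 (edgeR).

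Of 11 early auxin response genes, 4 fell and none rose in WT and 7 fell and none rose in ahl10-1. IAA19, for example, had an RPKM of 10.2 ± 2.27 (SD, n = 3) in WT control and 4.19 ± 0.179 in WT stress (log2 change -1.36, SE 0.15, adjusted p = 8.44e-05, edgeR). IAA3 changed by -0.96 (SE 0.11) and IAA2 by -0.86 (SE 0.19), with adjusted p-values of 8.41e-05 and 0.00681 in WT (edgeR). Without ahl10-1 control replicate 1 the counts were 8 in WT and 3 in ahl10-1, and without ahl10-1 stress replicate 2 or 3 they were 3 and 4 in ahl10-1. Of 10 root hair genes, 2 rose in WT, EXPA7 (log2 change 1.52, SE 0.40, adjusted p = 0.0196) and EXPA18 (1.31, SE 0.36, adjusted p = 0.0213, edgeR), and 7 rose in ahl10-1. The WT count was 0 without WT control replicate 2 or WT stress replicate 1 and 9 without WT control replicate 3. In ahl10-1 the count was 4 without control replicate 1 or stress replicate 2.

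Of 8 hypoxia genes, ADH1 (log2 change 1.31, SE 0.24, adjusted p = 0.00290) and PDC1 (0.71, SE 0.17, adjusted p = 0.0117), both of ethanol fermentation, rose in WT. PCO1, an oxygen-sensing cysteine oxidase gene, fell (-0.95, SE 0.23, adjusted p = 0.0106, edgeR). In ahl10-1 2 rose and 4 fell, and the WT count of 3 was 5 without ahl10-1 control replicate 1 and 6 without ahl10-1 control replicate 2. Of 7 phosphate starvation genes, 3 rose and 1 fell in each genotype. PAP17, a purple acid phosphatase gene, went from an RPKM of 11.1 ± 1.83 (SD, n = 3) to 41.7 ± 0.662 in WT (log2 change 1.85, SE 0.11, adjusted p = 1.75e-06, edgeR), and MGD3 fell (-0.94, SE 0.24, adjusted p = 0.0131, edgeR), a call lost without WT stress replicate 2. The interaction test, by which edgeR called 0 of 22604 genes (320 at an unadjusted p under 0.05, and 1 by DESeq2 after adjustment), called no gene of the 6 lists.

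**Figure D5:**
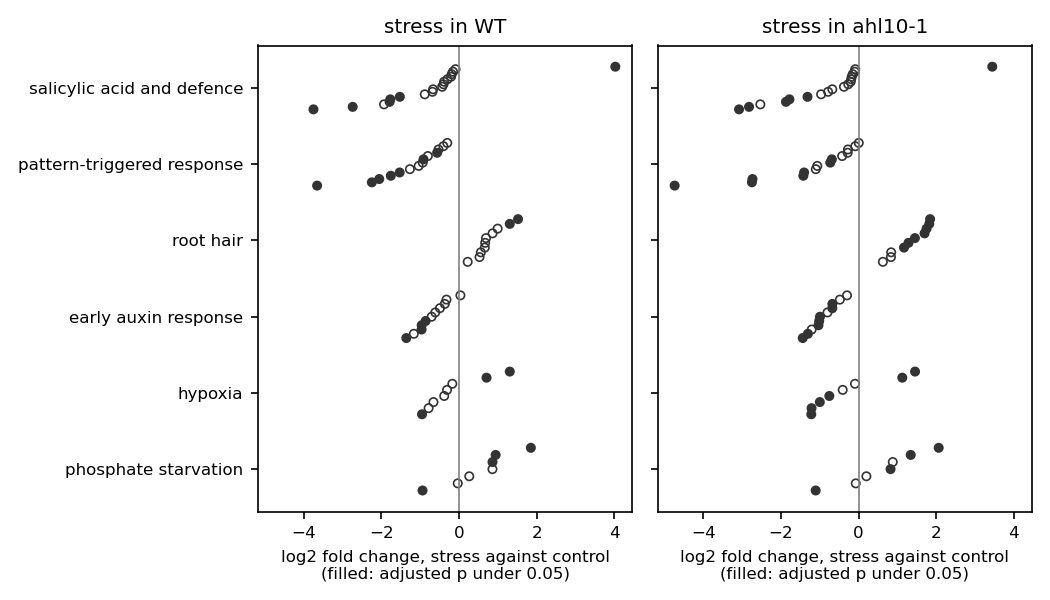
Log2 fold change under stress in WT (left) and ahl10-1 (right) for the fitted genes of 6 pathway lists; each point is a gene, filled where its adjusted p is under 0.05 (edgeR) and open otherwise. In the pattern-triggered and early auxin lists every filled point is below 0, in the root hair list every filled point is above 0, and BG2 is the filled point at 4.03 in WT.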

How the data were processed

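RNA-seq libraries of whole seedlings were used, 12 in 4 groups of 3. Per the submitters' processing notes, reads were handled with CASAVA, bcl2fastq 1.8.4, Bowtie2 and DESeq2 on TAIR10. The counter and its use of strand are not given in the sources used here. For each library the authors deposited estimated counts of reads per gene (not whole in 3.98% to 4.56% of genes, rounded here), RPKM, and a multi-mapped fraction for each gene, per the file headers, at most 0.00149 in any of the 16 genes. The authors also deposited tables with a log2 fold change, an adjusted p-value and a base mean, which is a mean of normalized reads and was entered as a score (no fixed range) and not used further.

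The 16 genes were found on the deposited RPKM. Counts of all 33602 genes were filtered with filterByExpr (minimum count 10, minimum total 15), leaving 22604 with all 16 genes among them. The fit used edgeR 4.0.16 (R 4.3.3), its robust quasi-likelihood method and TMM scaling, in 1 model of 4 group means and 8 residual degrees of freedom. Benjamini-Hochberg adjustment ran over all 22604 genes, and an adjusted p under 0.05 was called. Intervals were not formed, and the depth limit of 3 reads for a count of 0 covers counting error only. Gene products, neighbours, overlaps and promoters come from RefSeq (TAIR10.1), in which 32835 identifiers matched. The fits were also run on simulated counts, with changes planted only in the ahl10-1 stress group and in genes with higher mean counts. That run does not show how well a difference would be found at the low stress counts of the 16 genes. Figures were drawn with matplotlib 3.10.9.

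The 16 genes, the 6 lists, the tissue markers and the motifs were chosen with earlier results of these data known. All 16 genes are printed, with the 3 nearest genes on each side of each threshold and, per list, up to 4 genes with the smallest p in WT and any called in the other direction. Other genes named (AT2G34810, EXT6, UGT74E2, ALF5, ECA1, AT3G22910, ICS1, EDS1, PAD4, NPR1, RBOHD, WRKY33, FLS2, PAD3, CYP71A13 and the neighbours) were chosen after their values were seen. Deviations from the group means of same-numbered libraries (numbers from the titles) were correlated over 0.1 for all 3 numbers in stress in ahl10-1 alone (correlations of 0.112, 0.110 and 0.188), so a fit of those libraries with the replicate number as a block was added after the data were seen. The other alternatives were RLE scaling, no filter, a stricter filter, DESeq2 1.42.0, limma 3.58.1 on log2(RPKM + 1) and log2(RPKM + 0.1), the compared groups alone, the replicate block in all libraries, counts without multi-mapped reads, and each of the 12 libraries left out.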

Additional observations from a re-analysis of the deposited data

How the results depend on the processing

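None of the 16 genes was called between genotypes under any of the alternatives. The sign of a named genotype difference turned for ABCG4 in control (-0.42 to 0.038 on the log2 scale when 1 library was left out, the positive value without WT control replicate 2) and for the interaction of AT3G23550 (0.004 with limma on log2(RPKM + 1)). All 16 genes stayed lower under stress in every fit, with smaller values on the log2(RPKM + 1) scale. Over all genes, DESeq2 called 26 between genotypes in control, 33 under stress and 1 in the interaction, and the compared groups alone gave 7 in control. Leaving out 1 library gave 3 to 12 in control and 3567 to 5975 for stress in WT, the lowest without WT stress replicate 1. The cause of these shifts was not tested.

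The number of genes meeting the rule was 35 with a control minimum of 1, 10 with 2, 6 with a stress mean under 0.25, 59 under 1, and 10 when the highest stress library had to be under 0.5. With RPKM rescaled by TMM it was 18, of which 15 were shared. Leaving out 1 library gave 14 to 18.

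In WT, list counts were 4 for the pattern-triggered list with the compared groups alone, 4 (DESeq2) and 0 (compared groups alone) for root hair, and 5 and 6 for hypoxia in the same order. Leaving out 1 library gave 3 to 9 (pattern-triggered), 0 to 9 (root hair), 3 to 8 (early auxin) and 3 to 6 (hypoxia) in WT, and 3 to 7, 4 to 10 and 3 to 8 for the first 3 of these lists in ahl10-1.

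With the replicate number as a block in all libraries, 5600 genes were called for stress in WT, 6474 for stress in ahl10-1, 3 between genotypes in control and 7 under stress. None of the 16 genes was among the genotype calls. The ahl10-1 libraries alone with that pairing gave 6787. In stress in ahl10-1 the block moved no list count by more than 1.5 times: the pattern-triggered count was 5 with the block in all libraries, and in the ahl10-1 libraries alone the salicylic acid count was 8 and the root hair count 10. Among the list genes named, CBP60G passed the threshold in the latter fit. Stress values of the 16 genes rest on few reads (0 to 139), which limits every genotype comparison made there. The rule limits the genotype comparisons of these genes as well, since it set its thresholds over the libraries of both genotypes.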
